A study of Mus musculus with 6 samples.

Results

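The 10 genes described here encode negative regulators and transcription factors that are switched on by the RAS and ERK branch of growth factor signalling: the Sprouty genes Spry1, Spry2 and Spry4, the Spred genes Spred1 and Spred2, the dual-specificity phosphatase genes Dusp4, Dusp5 and Dusp6, and the ETS factor genes Etv4 and Etv5. They were taken by symbol from a table of 55385 genes, and all 10 were found. The list was drawn up from known ERK targets but was also chosen by the higher Spry2 value in the same libraries, so Spry2 is given as a description without a test. RNA was profiled in Neuro2A (N2A) cells, a mouse neuroblastoma line labelled as neuroblasts of brain tissue. Both groups were transfected with a small interfering RNA (siRNA) at 100 nM. One group of 3 libraries received si-circCpsf6, directed at circCpsf6, a circular transcript whose name refers to the gene Cpsf6, and the other group of 3 received si-NC, the comparison siRNA. The labels name 1 cell line, no clones and no separate cultures, so every p-value below rests on library-to-library spread that may be only technical. Values are FPKM, which are meant to correct fragment numbers for gene length and for library size. The program that made them is not given, so orders and sums of levels across genes only describe the listed values.

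Growth factors bind receptor tyrosine kinases, which act through adaptors and RAS on the kinases RAF, MEK and ERK. Active ERK enters the nucleus and induces genes whose products damp the same pathway. Sprouty and Spred proteins act at the level of RAS and RAF, and the DUSP proteins remove phosphate from ERK itself. Etv4 and Etv5 belong to the PEA3 group of ETS transcription factors, which are induced by FGF signalling. In neural cells the Sprouty proteins restrain responses to FGF and neurotrophins. Across many cell types the transcripts of these feedback genes are used together as a readout of pathway output. ERK activity itself was not measured here.

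Promoter sequences are shown for 4 members because they pair the members that stood furthest apart between the groups and had a window (Spry2 and Dusp6) with those whose fitted differences were nearest to 0 (Dusp5 and Spred1). The windows hold 250 bases before the annotated start and 50 from it on, from RefSeq on GRCm38.p6, written along the gene. Capitals mark every match to the ETS motif CGGAAG, the AP-1 motif TGANTCA, the CRE motif TGACGTCA or the CArG box, on either strand. Shorter or other forms of the ETS motif were not searched.

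Spry2 promoter, chr14:105896770-105897069, minus strand: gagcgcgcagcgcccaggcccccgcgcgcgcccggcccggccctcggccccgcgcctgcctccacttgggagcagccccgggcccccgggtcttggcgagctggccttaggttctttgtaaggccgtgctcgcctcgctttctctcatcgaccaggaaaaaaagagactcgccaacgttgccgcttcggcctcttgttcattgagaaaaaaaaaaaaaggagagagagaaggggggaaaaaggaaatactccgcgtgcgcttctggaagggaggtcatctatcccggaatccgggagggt
Dusp6 promoter, chr10:99262981-99263280, plus strand: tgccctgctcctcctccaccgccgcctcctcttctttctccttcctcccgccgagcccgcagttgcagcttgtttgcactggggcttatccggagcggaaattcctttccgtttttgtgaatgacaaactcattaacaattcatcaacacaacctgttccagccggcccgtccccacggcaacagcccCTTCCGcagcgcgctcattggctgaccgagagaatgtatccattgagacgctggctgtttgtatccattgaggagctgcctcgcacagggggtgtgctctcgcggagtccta
Dusp5 promoter, chr19:53528895-53529194, plus strand: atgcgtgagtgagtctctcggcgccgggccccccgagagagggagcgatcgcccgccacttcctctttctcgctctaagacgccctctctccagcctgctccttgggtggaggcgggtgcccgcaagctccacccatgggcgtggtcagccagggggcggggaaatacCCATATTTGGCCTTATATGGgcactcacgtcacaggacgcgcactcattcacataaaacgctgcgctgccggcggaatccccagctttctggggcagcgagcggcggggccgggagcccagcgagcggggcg
Spred1 promoter, chr2:117120821-117121120, plus strand: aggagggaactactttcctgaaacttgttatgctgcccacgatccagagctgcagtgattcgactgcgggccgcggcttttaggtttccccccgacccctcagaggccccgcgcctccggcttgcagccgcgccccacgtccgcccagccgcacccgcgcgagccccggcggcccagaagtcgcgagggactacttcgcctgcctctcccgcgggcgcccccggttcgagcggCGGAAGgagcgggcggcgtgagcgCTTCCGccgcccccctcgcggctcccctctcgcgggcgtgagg

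Of the 10 members, 7 had a window that was searched, Etv5 with a pair of starts. The ETS motif CGGAAG stood in the windows of Dusp6, Spred2 and Spred1 (2 matches in Spred1), and in 16.9% of all 32841 windows of the same length. Positions are counted from the annotated start as 0. The Dusp6 match began at -62, that of Spred2 at -43, and those of Spred1 at -17 and 7. The Spred2 match shares 3 letters with a GC box. Dusp5 held 2 CArG boxes side by side, at -82 and -72, a box found in 1.63% of all windows. The windows of Spry2, Spry1 and Etv5 held no match to CGGAAG or the CArG box, which does not mean that they lack other forms of the ETS motif. No member window matched the AP-1 motif (7.81% of all windows), the CRE motif (1.79%) or the TATA box TATAAA (13.6%). A GC box, GGGCGG, stood in the windows of Spred1, Spry1, Spred2, Dusp5 and the more upstream Etv5 start, and in 35.7% of all windows. These are matches of letters and not measured sites.

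The host gene and the cell identity were looked at first. Cpsf6 read 14.09, 14.5 and 15.2 FPKM in si-NC replicates 1 to 3 and 10.65, 15.06 and 14.5 FPKM in si-circCpsf6 replicates 1 to 3. A value per gene does not part the circle from the linear mRNA, so knockdown of circCpsf6 is not checked by these files. Of 11 sympathoadrenal neuroblast markers, 10 passed the filter on low values (a mean of at least 1 FPKM). Their summed level was 1592 to 2649 FPKM in si-NC and 526 to 1016 FPKM in si-circCpsf6, led by the granin gene Chgb, so it moved with the groups, and its part in the results below was not tested. The macrophage marker Ptprc, the endothelial marker Kdr, the glial markers Sox10 and S100b and the epithelial markers Epcam and Krt18 stayed under 0.1 FPKM in all 6 libraries. Of the other-lineage lists, macrophage markers summed to 1.09 to 1.62 FPKM in si-NC and 0.96 to 1.2 in si-circCpsf6, endothelial markers to 0.79 to 1.21 and 1.59 to 3.19, glial markers to 0.83 to 1.27 and 0.36 to 0.67, epithelial markers to 0.49 to 0.77 and 1.09 to 1.43, and fibroblast markers to 2.54 to 10.56 and 5.53 to 11.55. In bulk RNA, fewer cells of a type and less RNA per cell cannot be told apart. Between 12671 and 13080 genes reached 1 FPKM per library.

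The question was which feedback genes differed between cells given si-circCpsf6 and cells given si-NC. Spry2, Dusp4 and Dusp6 had the largest differences with no overlap between groups, Spry4 and Etv4 had smaller differences with no overlap, Etv5 and Spred2 overlapped, and Spred1 and Dusp5 overlapped with means that differed by less than the spread within a group. Among the 9 members other than Spry2, 7 had a higher mean in si-circCpsf6 and 2 a lower one on the log2(FPKM + 1) scale, but none passed the test over all 12974 genes (limma, Benjamini-Hochberg adjusted p under 0.05), which called 0.902% of genes higher and 0.786% lower. At an unadjusted p under 0.05, 5 of the 9 were higher, as were 10.2% of all genes tested, and none was lower, against 10.1% of all genes. In 4 of the 9 all si-circCpsf6 values lay above all si-NC values, as in 12.8% of all genes. The median difference over the 9 was 0.64, against -0.02 over all genes tested. Among the same 9, Dusp4 and Dusp6 had q-values under 0.05 in the authors' deposited table (listed as 0), as 3.22% of the genes tested here did in the same direction.

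**Figure D1:**
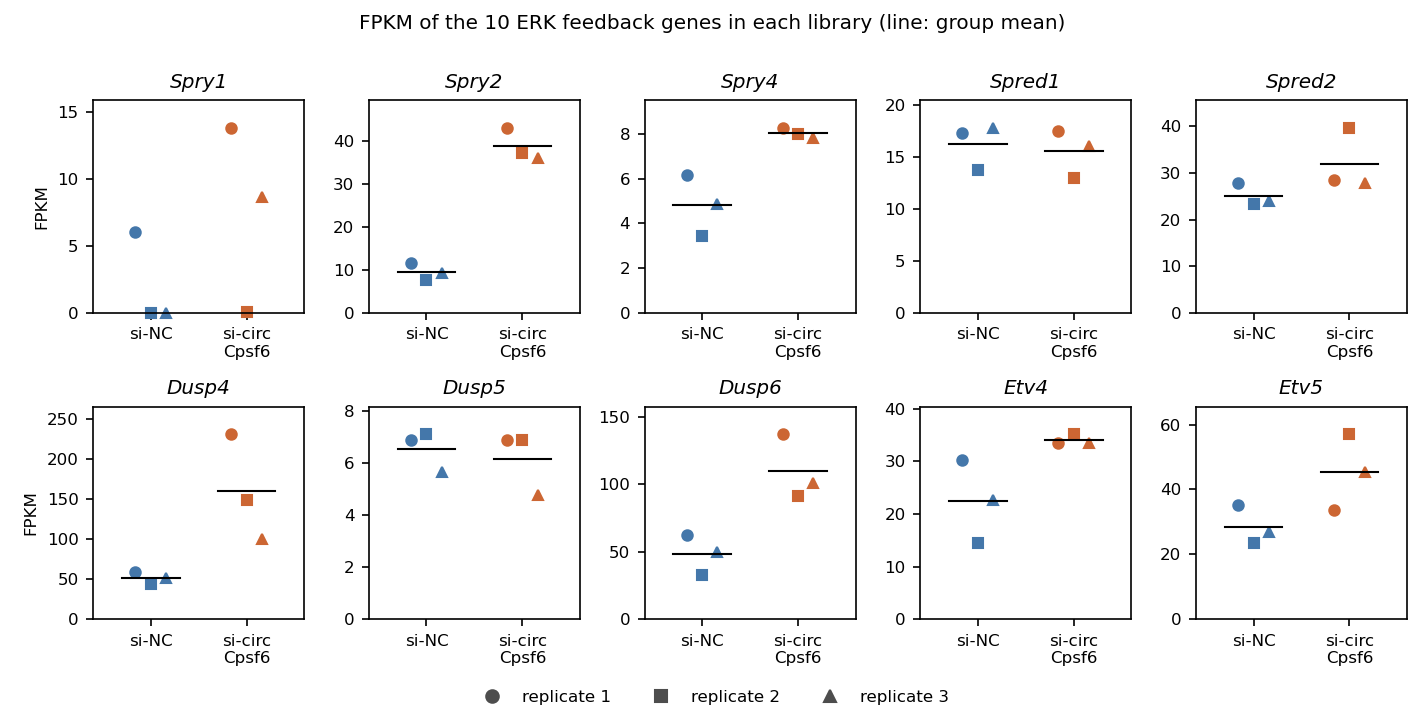
FPKM (vertical axis, linear, from 0) of each of the 10 genes in the 3 si-NC (blue) and 3 si-circCpsf6 (orange) libraries, with marker shape for the replicate number and a line for the group mean, left out for Spry1. The groups lie apart for Spry2, Spry4, Dusp4, Dusp6 and Etv4, and overlap for the other 5 genes.

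Sprouty proteins are membrane-linked inhibitors of receptor tyrosine kinase signalling. Spry2 (ENSMUSG00000022114, chromosome 14, 105891947 to 105896819, minus strand, GRCm38) read 11.64, 7.67 and 9.38 FPKM in si-NC and 43.12, 37.35 and 36.08 FPKM in si-circCpsf6, in the order of replicates 1 to 3. Every si-circCpsf6 library was over 3 times the highest si-NC library, and the ratio of means was 4.06. As the gene that drew attention to the list, it is described and not tested. It moved from the 7th to the 4th highest level among the 9 members other than Spry1, passing Spred1, Spred2 and Etv4.

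Spry4 (ENSMUSG00000024427, chromosome 18, 38586247 to 38601415, minus strand, GRCm38), another inhibitor of the same family, read 6.18, 3.44 and 4.86 FPKM in si-NC and 8.26, 8.01 and 7.83 FPKM in si-circCpsf6. The 3 si-circCpsf6 libraries lay close together above the si-NC libraries, which spread more widely. The difference was 0.66 ± 0.19 (log2 scale, SE, n = 3 each) and did not pass the test (limma adjusted p = 0.112).

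Spry1 (ENSMUSG00000037211, chromosome 3, 37639947 to 37644598, plus strand), the remaining Sprouty member, was listed at 6.0, 0 and 0 FPKM in si-NC and at 13.79, 0.02 and 8.68 FPKM in si-circCpsf6. It was near 0 in libraries of both groups and well above 0 in others, so no mean is given, and the difference did not pass the test (limma adjusted p = 0.509). Such a split, with 5 FPKM or more in 1 library and 0.05 or less in another of the same group, was seen in 29 of the 12974 genes tested (0.224%), and in both groups at once in 4. The fibroblast marker Col1a1, a collagen gene, was also highest in replicate 1 of each group, at 4.53, 0.13 and 0.86 FPKM in si-NC and 3.69, 0.16 and 1.13 FPKM in si-circCpsf6. Col1a1 was lowest in replicate 2 of each group, while Spry1 was so in si-circCpsf6 only, being 0 in both replicates 2 and 3 of si-NC. The part of Col1a1-expressing cells in the Spry1 values was not tested. The sum of the 3 Sprouty genes was 23.8, 11.1 and 14.2 FPKM in si-NC and 65.2, 45.4 and 52.6 FPKM in si-circCpsf6, of which Spry2 made up 48.9% to 69.0% and 66.2% to 82.3%.

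Spred proteins, relatives of the Sproutys, bind neurofibromin and bring it to RAS at the membrane. Spred1 (ENSMUSG00000027351, chromosome 2, 117121374 to 117182279, plus strand) read 17.27, 13.72 and 17.78 FPKM in si-NC and 17.5, 13.02 and 16.07 FPKM in si-circCpsf6. The ranges coincided, with replicate 2 lowest in both groups, and the difference was -0.06 (95% interval -0.44 to 0.31; limma adjusted p = 0.864). Spred2 (ENSMUSG00000045671, chromosome 11, 19924375 to 20024026, plus strand) read 27.81, 23.38 and 23.89 FPKM in si-NC and 28.53, 39.64 and 27.76 FPKM in si-circCpsf6. Replicates 1 and 2 of si-circCpsf6 lay above the si-NC range, replicate 1 only just, and replicate 3 fell inside it. The difference of 0.33 (95% interval -0.07 to 0.72) did not pass the test (limma adjusted p = 0.33). Without si-circCpsf6 replicate 2 it was 0.17. The third family gene, Spred3, which is no member, read 11.1, 10.91 and 7.91 FPKM in si-NC and 14.22, 17.92 and 11.29 FPKM in si-circCpsf6 (limma adjusted p = 0.229). Spry3 was not analysed here.

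The DUSP members are phosphatases of MAP kinases: Dusp6 acts on ERK in the cytoplasm, Dusp5 on ERK in the nucleus, and Dusp4 is nuclear with a wider choice of MAP kinases. Dusp4 (ENSMUSG00000031530, chromosome 8, 34807297 to 34819894, plus strand) had the highest mean of the members in both groups, although Dusp6 exceeded it in si-NC replicate 1 and si-circCpsf6 replicate 3, with 58.93, 44.08 and 51.54 FPKM in si-NC and 230.85, 148.85 and 99.64 FPKM in si-circCpsf6. All 3 si-circCpsf6 libraries were above all si-NC libraries, but they differed among themselves by more than the lowest of them differed from si-NC. The ratio of means was 3.1, and the difference of 1.54 ± 0.29 (log2 scale, SE, n = 3 each) missed the threshold with a limma adjusted p of 0.0502. It passed after quantile normalization (limma adjusted p = 0.0404) and among genes averaging 5 FPKM or more (limma adjusted p = 0.0435), and over all alternatives the adjusted p ran from 0.0404 to 0.186.

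Dusp6 (ENSMUSG00000019960, chromosome 10, 99263231 to 99267489, plus strand) read 62.01, 32.85 and 49.91 FPKM in si-NC and 136.97, 91.3 and 100.75 FPKM in si-circCpsf6. The groups did not overlap, and the ratio of means was 2.27. The difference was 1.19 ± 0.26 (log2 scale, SE, n = 3 each) and did not pass the test (limma adjusted p = 0.0642), with adjusted p between 0.0557 and 0.222 over the alternatives. Dusp5 (ENSMUSG00000034765, chromosome 19, 53529109 to 53542431, plus strand), the member with a pair of CArG boxes, read 6.86, 7.09 and 5.65 FPKM in si-NC and 6.87, 6.86 and 4.76 FPKM in si-circCpsf6. Its ranges overlapped, with replicate 3 lowest in both groups, and its difference was -0.08 (95% interval -0.48 to 0.32; limma adjusted p = 0.829). That interval lies below the fitted interval of Dusp6, 0.6 to 1.79, and that of Dusp4, 0.86 to 2.22. The difference between these genes' responses was not tested.

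Summed over Dusp4, Dusp5 and Dusp6, the level was 128, 84.0 and 107 FPKM in si-NC and 375, 247 and 205 FPKM in si-circCpsf6. Dusp4 made up 46.1% to 52.5% of that sum in si-NC and 48.6% to 61.6% in si-circCpsf6. Other phosphatases of the family that act on p38, JNK or ERK differed less than Dusp4 and Dusp6: the values were 0.29 for Dusp1, -0.09 for Dusp7, -0.2 for Dusp8, 0.23 for Dusp10 and 0.19 for Dusp16, with limma adjusted p values of 0.339 to 0.77. None of these 5 passed in either direction, also at an unadjusted p under 0.05. Of these, Dusp10 alone had groups that did not overlap, at 6.89, 6.9 and 6.83 FPKM and 7.62, 8.63 and 8.4 FPKM. Dusp2 and Dusp9 were below the filter, at up to 1.14 and 0.47 FPKM.

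**Figure D2:**
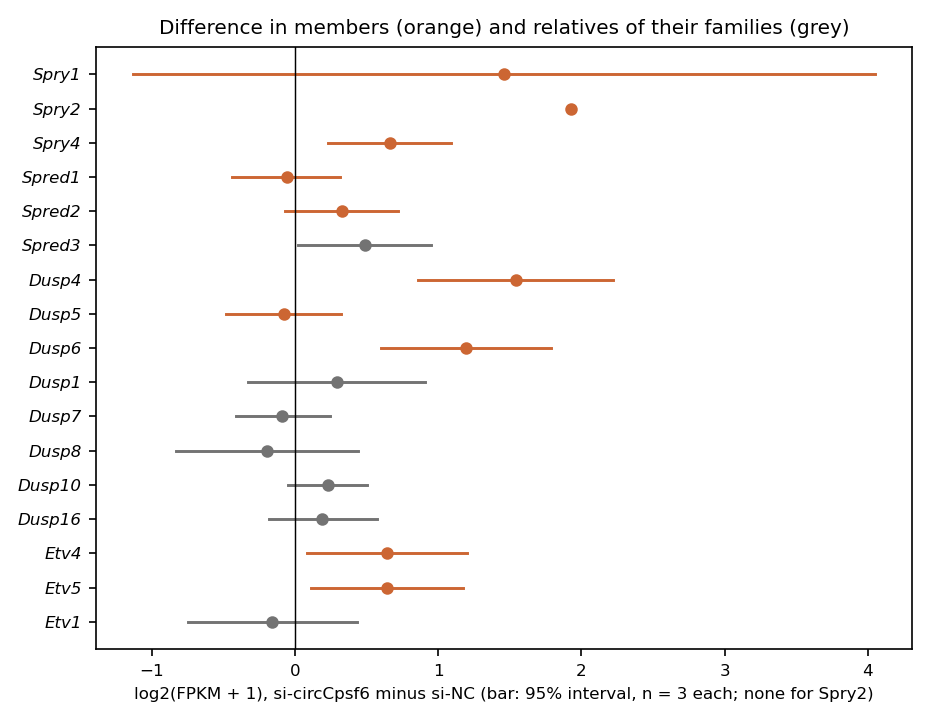
Difference in log2(FPKM + 1) between si-circCpsf6 and si-NC (horizontal axis) for the 10 members (orange) and 7 tested relatives (grey), with 95% intervals from limma, n = 3 each, and none for Spry2. The members Spry4, Dusp4, Dusp6, Etv4 and Etv5 and the relative Spred3 have intervals above 0 before adjustment for the number of genes, and the interval of Spry1 is the widest.

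Etv4 and Etv5 encode ETS transcription factors that respond to FGF and ERK signalling. Etv4 (ENSMUSG00000017724, chromosome 11, 101769742 to 101785371, minus strand) read 30.21, 14.49 and 22.64 FPKM in si-NC and 33.61, 35.16 and 33.61 FPKM in si-circCpsf6. The si-circCpsf6 libraries agreed closely and lay just above the highest si-NC library. The difference of 0.64 (95% interval 0.08 to 1.2) did not pass the test (limma adjusted p = 0.194), and without si-NC replicate 2 it was 0.37. Etv5 (ENSMUSG00000013089, chromosome 16, 22381309 to 22439719, minus strand) read 35.3, 23.38 and 26.81 FPKM in si-NC and 33.73, 56.98 and 45.46 FPKM in si-circCpsf6. Here si-circCpsf6 replicate 1 fell inside the si-NC range, and the difference of 0.64 (95% interval 0.11 to 1.17) did not pass the test (limma adjusted p = 0.174). The third PEA3 gene, Etv1, was lower in level, at 3.39 ± 0.56 and 3.07 ± 1.46 FPKM (mean ± SD, n = 3 each; limma adjusted p = 0.768).

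By level in si-NC the order was Dusp4, Dusp6, Etv5, Spred2, Etv4, Spred1, Spry2, Dusp5 and Spry4, with means from 51.5 down to 4.83 FPKM. The ranges of neighbours overlapped everywhere in that order except on either side of Spry2, which lay apart from Spred1 above it and Dusp5 below it. In si-circCpsf6 the order was Dusp4, Dusp6, Etv5, Spry2, Etv4, Spred2, Spred1, Spry4 and Dusp5, from 160 down to 6.16 FPKM. There Dusp4 overlapped Dusp6, Etv5 overlapped Spry2 and Etv4 overlapped Spred2, and the other neighbours lay apart.

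The members also varied together inside the si-NC group, where the siRNA was the same. In si-NC, replicate 1 was the highest library for 8 of the 10 members and replicate 2 the lowest for 8, against 36.8% and 35.9% of all genes tested. The full order of replicate 1, then 3, then 2 was shared by Spry2, Spry4, Spred2, Dusp4, Dusp6, Etv4 and Etv5, that is 7 of 10 members, and by 22.6% of all genes tested. The median deviation of the 9 members other than Spry1 from their si-NC mean was 0.28 in replicate 1 and -0.26 in replicate 2 on the log2 scale, while that of all genes was 0.01 in both. Among 17 other tested targets of growth factor and ERK signalling, 12 were highest in si-NC replicate 1, while 7 were lowest in replicate 2 and 8 in replicate 3. In si-circCpsf6, replicate 1 was highest for 7 of the 10 members and for 32.2% of all genes, and replicate 3 lowest for 5 members and 25.7% of all genes, with no single order shared by more than 4. The 17 other targets did not share this: 3 were highest and 8 lowest in si-circCpsf6 replicate 1, and 10 were highest in replicate 2. Dusp4 and Dusp6 were highest in si-circCpsf6 replicate 1, the library in which Etv5 was lowest. This pattern was noticed after the values were seen and was not tested.

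**Figure D3:**
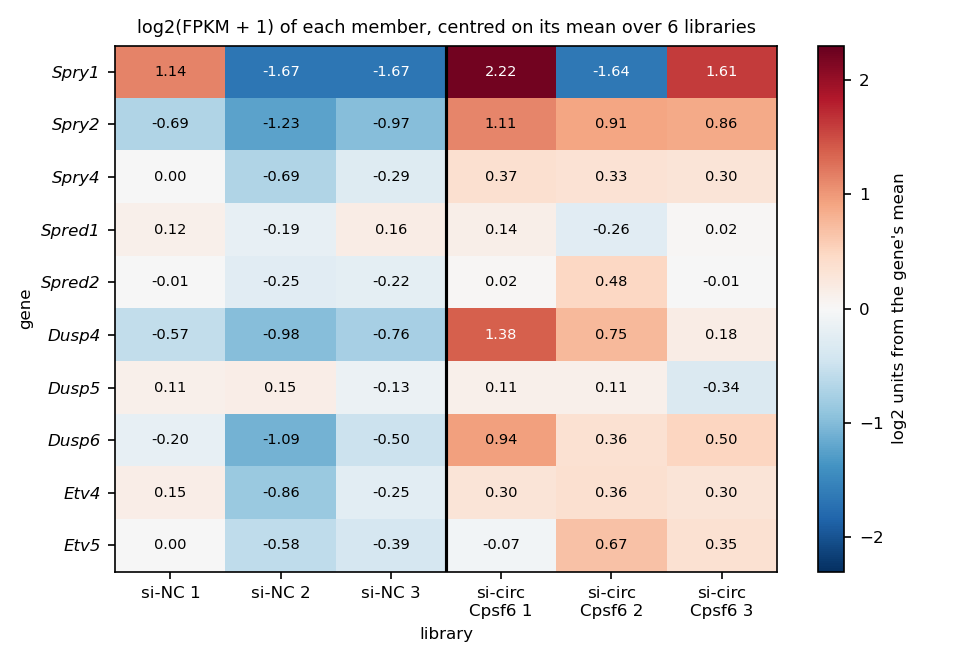
Each member's log2(FPKM + 1) in each library, centred on the gene's mean over the 6 libraries (colour and printed value, log2 units). In si-NC replicate 2 the value is the lowest of the 3 si-NC libraries for Spry2, Spry4, Spred1, Spred2, Dusp4, Dusp6, Etv4 and Etv5, and Spry1 swings across both groups.

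The genes with patterns nearest to Spry2 were found by the distance between centred log2(FPKM + 1) profiles over the 6 libraries, among the 7925 genes that averaged 5 FPKM or more. They were Wipi1, an autophagosome gene (distance 0.4), the cysteine protease inhibitor gene Ctla2a (0.51), the growth factor gene Vegfc (0.59), the thrombin receptor gene F2r (0.62) and Phlda1, an early growth factor target (0.64). F2r read 56.44, 30.67 and 49.69 FPKM in si-NC and 124.13, 144.18 and 149.26 FPKM in si-circCpsf6, without overlap. Of the other members, Dusp4 ranked 10th and Dusp6 16th in nearness to Spry2, Spry4 188th, Etv4 234th and Etv5 339th. Spred1 and Dusp5 ranked 3754th and 4287th. With 2 groups of libraries, nearness mostly reflects the step between groups, so it is given as a description.

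Beyond the members, 91 genes of the receptor, RAS and ERK lists passed the filter. Of these 3 rose, 3.3% of the 91, and none fell (limma, adjusted over all genes). At an unadjusted p under 0.05, 25 were higher (27.5%) and 5 lower (5.5%), against the shares of 10.2% and 10.1% for all genes, and their median difference was 0.18. Among ETS factors, Elk3, a ternary complex factor that partners serum response factor, rose from 7.57, 8.17 and 6.55 FPKM to 15.48, 13.7 and 13.98 FPKM (limma adjusted p = 0.0328). Its groups lay far apart for their spread. It overlaps Cdk17 on the opposite strand, whose mean was 7.41 FPKM in si-NC against 9.78 in si-circCpsf6, and the use of strand in counting is not stated in these sources. Of the 4 further ETS genes, Ets2, Elk4 and Elk1 had groups that did not overlap, as 12.8% of all genes did, and differences of 0.56, 0.6 and 0.23 that did not pass the test (limma adjusted p = 0.134, 0.148 and 0.385).

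In the list of other growth factor and ERK targets, 1 of 17 tested genes rose and none fell, with 12 above and 5 below 0 and a median of 0.17. It was Phlda1, at 7.87, 6.27 and 6.01 FPKM in si-NC and 31.61, 31.92 and 17.41 FPKM in si-circCpsf6 (limma adjusted p = 0.0284). At an unadjusted p under 0.05, 5 of the 17 were higher (29.4%) and 1 lower (5.9%). The lower gene was Myc, at 55.51, 57.45 and 55.3 FPKM in si-NC and 28.67, 43.94 and 37.5 FPKM in si-circCpsf6 (limma adjusted p = 0.105). Of 13 tested receptor tyrosine kinases 1 rose and none fell (median 0.24): Pdgfrb, the platelet-derived growth factor receptor beta gene, at 1.57, 1.45 and 0.35 FPKM in si-NC and 4.31, 4.24 and 4.88 FPKM in si-circCpsf6 (limma adjusted p = 0.0455). Pdgfrb is also 1 of the 7 fibroblast markers, of which only Col1a1 (values above) and Pdgfrb passed the filter. The ratio of means was 0.902 for Col1a1, 0.683 for Col1a2 and 0.845 for Col3a1. It was 1.77 for Pdgfra, whose groups did not overlap at up to 0.85 FPKM. For Dcn it was 2.0 at up to 0.63 FPKM, and for Lum 3.33 at up to 0.2 FPKM. The part of such cells in the Pdgfrb values was not tested. The calls of Elk3 and Pdgfrb were lost whenever any 1 library was left out, with adjusted p from 0.0565 to 0.159 and from 0.0858 to 0.133. That of Phlda1 was lost in 5 of 6 such fits and kept without si-circCpsf6 replicate 3 (limma adjusted p = 0.0162). With no filter on low values all 3 were lost (limma adjusted p = 0.0869, 0.141 and 0.0915 for Elk3, Pdgfrb and Phlda1), and Pdgfrb also with a pseudocount of 0.1 (0.0787).

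None of 26 tested adaptor, RAS, RAF, MEK and ERK genes passed in either direction, with 13 above and 13 below 0, a median of 0.01, and 5 higher and 2 lower at an unadjusted p under 0.05. The smallest p there belonged to Braf, a RAF kinase gene, at 7.04, 6.81 and 6.25 FPKM in si-NC and 10.73, 9.85 and 10.42 FPKM in si-circCpsf6 (limma adjusted p = 0.0642). Shc3 and Map2k1, genes of an adaptor and of MEK1, followed with limma adjusted p values of 0.0959 and 0.116. None of 16 tested genes of other inhibitors passed (median 0.26, with 5 higher and 1 lower at an unadjusted p under 0.05). Nf1, which encodes neurofibromin, the partner of Spred proteins, read 4.3, 5.47 and 4.7 FPKM in si-NC and 8.78, 6.58 and 6.45 FPKM in si-circCpsf6 (limma adjusted p = 0.146), and the adjusted p values of Flcn and Rasal2 were 0.0983 and 0.112. None of 7 kinases downstream of ERK passed (median 0.07), with 2 higher and 1 lower at an unadjusted p under 0.05. Rps6ka2 and Mknk2 differed by 0.55 and -0.54 (limma adjusted p = 0.0948 and 0.105) and Rps6ka5 by 0.48 (limma adjusted p = 0.208). Of 19 FGF and EGF family ligands, Fgf1 alone reached the filter, at 3.09, 2.8 and 1.94 FPKM in si-NC and 11.93, 7.56 and 4.75 FPKM in si-circCpsf6 (limma adjusted p = 0.0757).

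**Figure D4:**
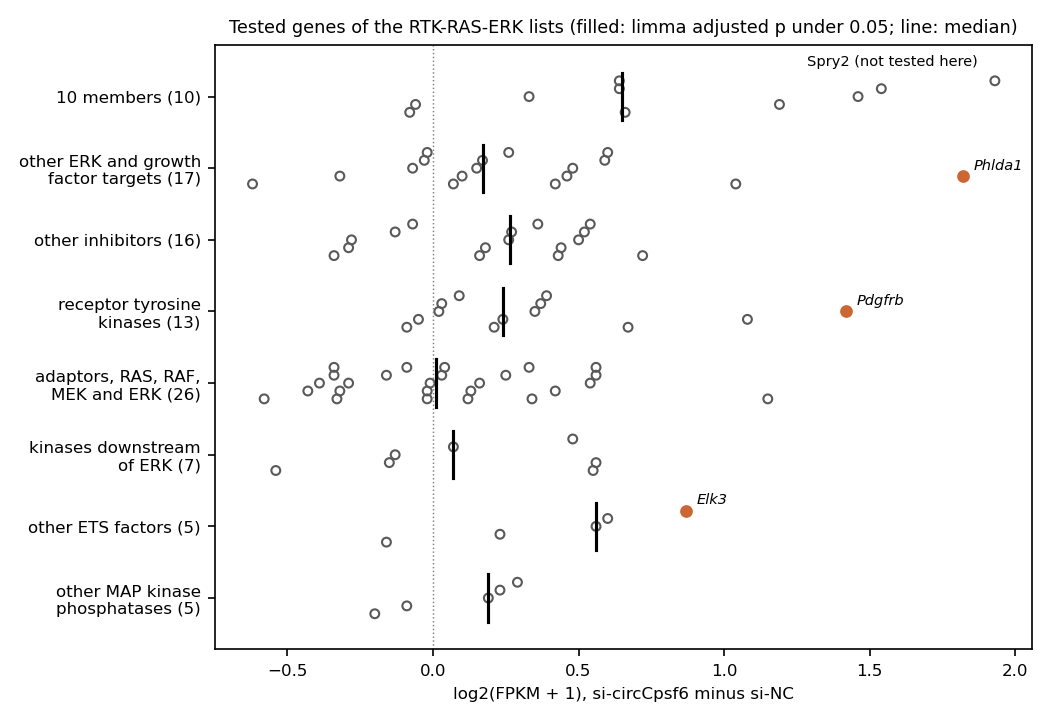
Difference in log2(FPKM + 1), si-circCpsf6 minus si-NC (horizontal axis), for each tested gene of the members and of 7 lists, with the number of genes in brackets, filled points for a limma adjusted p under 0.05 and a line at the median. Phlda1, Pdgfrb and Elk3 are the filled points. Spry2 is exempt from the fill rule and drawn open whatever its p, because it is described without a test. The members' median is 0.65 with Spry2, as drawn, and 0.64 without it, and that of adaptors, RAS, RAF, MEK and ERK is 0.01.

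Reads could be shared between overlapping genes. Spry1 overlaps Gm42922, Spry4 overlaps Gm27369 and Gm27804, and Dusp5 overlaps Gm50394 (AC137853.2 in the annotation), and none of these 4 exceeded 0.52 FPKM in any library. The other 7 members overlap no annotated gene. The heptamer GCAGAAT stands in the longest 3' untranslated region of 44 of 95 searched genes that fell (46.3%), and of 11.1% of all 10668 searched genes. It was picked from earlier results of these data, so that share is no independent evidence. It stood there in 1 of the 10 members, Spred1, in the last of 7 exons. Etv5 carried it in the coding sequence, in the last of 13 exons, and the same site lies in the 3' untranslated region of a short Etv5 transcript, in the last of 4 exons. Both sites are shown with 11 bases on either side, with the heptamer in capitals, because these are the members in which it was found. Spry4 was searched only in its longest 3' untranslated region, so its coding sequence and 5' untranslated region are not covered.

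Spred1, chr2:117179105-117179111, plus strand: gtaacacatatGCAGAATtctcccaggaa
Etv5, chr16:22383592-22383598, minus strand: cgttcctgaagGCAGAATccgaatgcccc

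Spred1 did not differ between the groups beyond its spread and Etv5 had a higher mean in si-circCpsf6, as given above. Spry2, Dusp4 and Dusp6 carried no copy in any annotated transcript of GENCODE M21.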

How the data were processed

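Total RNA of N2A cells was extracted with Trizol, and the mRNA libraries were made with a kit named for small RNA, per the labels' protocols. The deposited table gives FPKM with 2 decimals for each gene and library, beside the authors' fold change as a ratio, its log2, and p-values with q-values; this follows the file headers and was deposited so. Bowtie 0.12.2 and, as builds, mm8 and mm9 are listed in the submitters' processing notes with no role. Not given in the sources used here are the program that made the FPKM, how strand was handled, and which test gave the p-values. Read counts and depth are unknown: in a search of possible depths, at most 27.9% to 31.5% of low values per library came within 0.1 of whole reads, where 20% would by chance, so no count test was run.

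Sample titles gave the group and the replicate number. The 12974 genes averaging 1 FPKM or more entered one limma fit (3.58.1, R 4.3.3) of log2(FPKM + 1) on group alone, with an intensity trend, two-sided, and with Benjamini-Hochberg adjustment over all of them at 0.05. On that scale a fold change of a low gene is understated. With 3 libraries a group an exact permutation test reaches 0.1 at best, so none was run. Library correlations of log2(FPKM + 1) across genes (genes are no independent replicates) were 0.936 to 0.971 within groups and 0.919 to 0.949 between groups. The members and the gene lists were chosen with earlier results of these data known. Named genes are the members, their family relatives, list genes that passed or had the smallest p, the 5 nearest patterns to Spry2, Cpsf6 and overlapping genes. Ets2, Elk4, Elk1, Myc, Col1a1, Col1a2, Col3a1, Pdgfra, Dcn, Lum and other markers at or near 0 were named after their values were seen. Values of a few listed genes are not reported here. Coordinates are from GENCODE M21 (GRCm38) and promoters from RefSeq (GRCm38.p6). The alternatives tried were no filter or one at 5 FPKM, a pseudocount of 0.1, median centring or quantile normalization, a fit lacking the intensity trend, the replicate number as a block, and the omission of each library in turn.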

Additional observations from a re-analysis of the deposited data

How the results depend on the processing

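With 117 genes called higher and 102 lower, the counts fell to 4 and 9 with no filter on low values, to 6 and 5 with the replicate number as a block, and to between 1 and 43 higher and 2 and 44 lower without 1 library (fewest without si-NC replicate 3, most without si-circCpsf6 replicate 1). The 3 list genes past the test became 0 with no filter and 0 in the replicate block (limma adjusted p = 0.0683 for Elk3, 0.0746 for Pdgfrb and 0.0507 for Phlda1), and 0 to 1 without 1 library. Members other than Spry2 past the test numbered 0, but 1 (Dusp4) under quantile normalization and 1 with a mean of at least 5 FPKM; that count stayed 0 without any 1 library. The median difference of the 10 members, Spry2 included, was 0.65, and that of the 9 others was 0.64. The median with Spry2 ran from 0.5 to 0.85 over the 13 alternatives, and the difference of Spry2 itself from 1.79 to 2.07. Spred1 turned to 0.0 without si-NC replicate 3 and 0.05 without si-circCpsf6 replicate 2 (range -0.17 to 0.05), and Dusp5 to 0.07 without si-circCpsf6 replicate 3 (range -0.17 to 0.07); the cause was not tested. Spry4, Spred2, Dusp6, Etv4 and Etv5 kept their direction and stayed short of the threshold in all 13, as did Spry1 in the 12 that gave a value.

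Same-numbered libraries correlated at 0.103, 0.129 and 0.084 in their deviations from the group means, so the replicate numbers were not taken as pairs; each library did correlate best with its own number, a hint from the data and not from the design. In the block fit 2781 genes had an unadjusted p under 0.05, against 2633 without it. Depth is unknown, so the counting error of Spry1 and of other low values cannot be given.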
